A study of Homo sapiens with 9 samples.

Results

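The 10 genes described here encode chaperones and proteases that fold, assemble or degrade proteins inside mitochondria. Of these, 6 are chaperones or their cofactors (HSPD1, HSPE1, HSPA9, TRAP1, GRPEL1 and DNAJA3) and 4 are proteases (LONP1, CLPP, YME1L1 and HTRA2). They were chosen by name and not by a rule on their values, but with earlier results of these data known. They are among 19775 genes that at least 1 probe set of the array names alone. Together they have 40 of the 41091 probe sets that name 1 gene. Where a gene had several, the one with the highest average log2(value + 16) stood for it and is called its representative. All 10 representatives passed the filter on dim probe sets, as did 25 of the 40 probe sets.

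RNA came from HEK293, a human embryonic kidney cell line, on 9 Affymetrix arrays. Cells were transiently transfected with surfactant protein C (SP-C), a small hydrophobic protein that alveolar type II cells of the lung make as a proprotein. There were 3 groups of 3 arrays: the wild-type protein (WT, the control), a form lacking exon 4 (Ex4) and a form with the L188Q substitution (LQ). Thus the control cells also carried an SP-C construct, HEK293 is a kidney-derived line and not a lung cell, and no untransfected group was analysed here. The promoter, the time after transfection and the share of transfected cells are not given in the sources used here. Nothing in the labels ties replicates to separate cultures, and the spread behind every p-value is that of these arrays, which may be technical.

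Mitochondria import most of their proteins unfolded. The HSP70 protein HSPA9 pulls in and folds these chains together with J-domain proteins such as DNAJA3 and the nucleotide exchange factor GRPEL1, and the HSPD1 chaperonin, capped by HSPE1, folds many of them in the matrix. LONP1 and the CLPP complex degrade damaged matrix proteins, YME1L1 works at the inner membrane and HTRA2 in the intermembrane space. Transcripts of several of these genes are known to rise in the mitochondrial unfolded protein response, in which ATF5, ATF4 and DDIT3 (CHOP) are the transcription factors most often named.

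HSPD1 and HSPE1 are neighbours that are transcribed away from each other from a shared promoter on chromosome 2. The stretch between their annotated RefSeq starts (GRCh38.p14) is shown because the pair could be read from it together, and DNAJA3 is shown because it was the member that changed. Capitals mark GCGCA, any base and GCGC in a row, a site of the respiratory gene activator NRF1, searched on both strands. In the HSPD1 heat shock stretch, capitals mark TTC, GAA and TTC, or GAA, TTC and GAA, with 2 free bases between neighbours, the repeat bound by heat shock factors.
HSPD1-HSPE1, chr2:197500275-197500378, plus strand: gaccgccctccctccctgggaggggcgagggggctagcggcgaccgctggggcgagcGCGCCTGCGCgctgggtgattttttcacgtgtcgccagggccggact
HSPD1 heat shock stretch, chr2:197500064-197500089, minus strand: cattTTCTGGAAAGTTCTGGAAccga
DNAJA3, chr16:4425768-4425867, plus strand: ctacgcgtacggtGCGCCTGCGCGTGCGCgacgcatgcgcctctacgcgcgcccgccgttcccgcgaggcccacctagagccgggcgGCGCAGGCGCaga

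RefSeq promoter windows, which run from 250 bases before to 50 bases after a start, were matched for 7 of the 10 members, with 10 windows in all. The NRF1 sequence was in 4 of these 10 windows, which belong to 4 members, DNAJA3, HSPD1, HSPE1 and LONP1. It was in 5.78% of all 35116 windows. HSPD1 and HSPE1 hold the same copy of it. In the DNAJA3 stretch 2 of its 3 copies overlap. The heat shock repeat was in a window of HSPD1 alone among the members, and in 0.49% of all windows. There 2 matches overlap to form 1 run, upstream of the second annotated start of HSPD1. No member window held the ER stress response element, CCAAT and CCACG with 9 free bases between (0.0769% of all windows), or TTGCATCA, the core of the amino acid response element (0.866%). A match is a string of letters, not a bound site.

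The labels and arrays were checked first. SFTPC, the transfected gene, lay between 97629.7 and 261955 on its brightest probe set over the 9 arrays. It was 173160 to 261955 in WT, 97630 to 169241 in Ex4 and 108963 to 132058 in LQ. Every WT array was thus above every mutant array. All 9 markers of HEK293 (such as VIM, KRT8, NEFL and PAX2) were above the array median on every array, with summed intensities of 155857 to 197066 in WT, 146851 to 157303 in Ex4 and 153307 to 165275 in LQ, and 1 of the 9 was called lower in LQ against WT. The array medians were 506.4 to 524.4 in WT, 316.1 to 434.3 in Ex4 and 303.9 to 371.8 in LQ, although the arrays share a common trimmed mean. The ratio of 3' to 5' GAPDH signal, a sign of RNA integrity, was 1.21 to 1.43 in WT, 0.956 to 1.22 in Ex4 and 1.06 to 1.09 in LQ. The same ratio for ACTB was 1.05 to 1.27 in WT, 1.15 to 1.48 in Ex4 and 1.15 to 1.23 in LQ. The array medians differed between WT and the mutants. The 2 ratios did not run alike, since that of GAPDH was lower in LQ than in WT, while that of ACTB lay within the WT range in LQ and above it on 2 of 3 Ex4 arrays. Markers of other cell types were checked as well. Of 7 fibroblast markers 4 were below the array median on every array and 1 (COL1A1) above it, and their summed intensity was 6898 to 8291 in WT, 4768 to 6044 in Ex4 and 3344 to 4551 in LQ. Of the 2 fibroblast markers bright enough to be tested, 1 was called lower in LQ against WT. Of 5 measured blood markers PTPRC was below the median on every array and CD79A above it, with sums of 2319 to 2975 in WT, 1538 to 1671 in Ex4 and 1315 to 1555 in LQ. Of 8 measured alveolar type II markers SFTPB and LAMP3 were above the median on every array and SFTPD below it, with sums of 5108 to 7379, 3955 to 4667 and 4669.5 to 5313. The part of SFTPC signal, array medians, RNA integrity and these markers in the results below was not tested. Ex4 replicate 1 stood apart from its group, with a mean correlation of 0.906 with the other Ex4 arrays and 0.911 with WT. The WT arrays were also loosely alike, with mean correlations within the group of 0.892, 0.903 and 0.911 for replicates 1 to 3. In LQ these were 0.956 to 0.959.

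In LQ against WT, 1 of the 10 members changed: DNAJA3 rose 1.56-fold, and the other 9 did not pass the threshold, an adjusted p of 0.05. Over all genes tested, 7.32% were called in LQ against WT (1026 of 14018 genes), so 1 in 10 is near the background. Among all genes 3.69% were called higher and 3.63% lower. An unadjusted p under 0.05 was reached by 3 members (HSPD1, DNAJA3 and YME1L1) and by 30.6% of all genes. Of the members 6 had positive log2 changes and 4 had negative ones, where 43.6% of all genes were positive, and the median was 0.17 beside -0.09 over all genes tested. In Ex4 against WT no member passed, and 0% of genes did (limma, with 2 members, YME1L1 and CLPP, and 3812 genes, 27.2%, at an unadjusted p under 0.05). There 6 members were positive, where 43.6% of genes were, and the median was 0.08 beside -0.08. Both comparisons share the WT arrays. In LQ against Ex4, which tests whether the mutants differ from each other, no member passed and 0% of genes did (limma, with 2 members, DNAJA3 and HSPE1, and 588 genes, 4.19%, at an unadjusted p under 0.05). There 8 members were positive, where 48.5% of genes were.

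**Figure D1:**
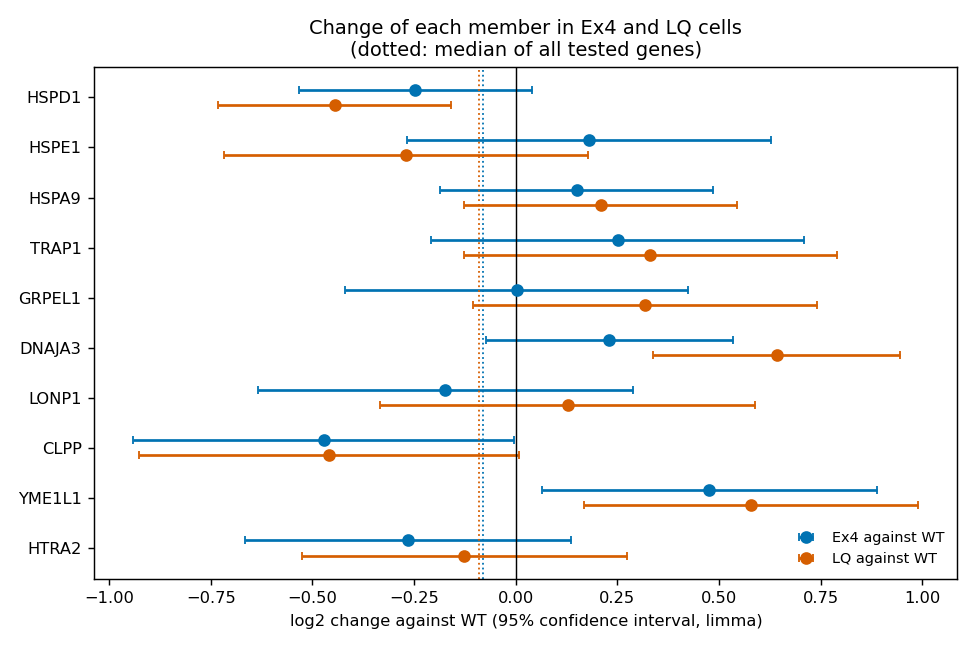
Fitted log2 change of each member against WT (x axis) with its 95% confidence interval, for Ex4 (blue) and LQ (orange), with n = 3 arrays a group. Dotted lines give the median over all tested genes, -0.08 for Ex4 and -0.09 for LQ. DNAJA3 at 0.64 in LQ is the one member past the threshold.

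DNAJA3, also called TID1, is a J-domain protein that hands substrates to HSPA9 and stimulates its ATPase. Its intensity was 9571, 9774 and 8414 on the WT arrays, 10416, 10957 and 11139 on the Ex4 arrays, and 13318, 14402 and 15618 on the LQ arrays. The 3 groups did not overlap and ran in the order WT, Ex4, LQ. That order without overlap was seen in 1 of the 10 members and in 0.877% of all genes tested. The log2 change in LQ against WT was 0.64 ± 0.14 (SE, limma adjusted p = 0.030, all 3 LQ arrays above all WT arrays). In Ex4 against WT it was 0.23 ± 0.14 (adjusted p = 0.32, 95% confidence interval -0.07 to 0.53). LQ lay above Ex4 by 0.41 ± 0.14 (adjusted p = 1.0, 0.012 unadjusted). The group order is thus a description, and the step between the mutants did not pass the adjustment over 32768 probe sets.

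The second DNAJA3 probe set gave 6316, 8196 and 6836 in WT, 8241, 7488 and 7383 in Ex4, and 9697, 10109 and 10731 in LQ. Again all LQ arrays were above all others, while Ex4 overlapped WT. Its log2 change in LQ against WT was 0.52 ± 0.15 (SE, adjusted p = 0.057) and in Ex4 against WT 0.12 ± 0.15 (adjusted p = 0.65). The DNAJA3 call in LQ ended after quantile normalization (0.48, adjusted p = 0.058) and without a variance trend (adjusted p = 0.071). It also ended without WT replicate 2 or 3 and without any one of the LQ arrays, each left out in turn, with log2 changes of 0.57 to 0.70 and adjusted p of 0.081 to 0.12. After centring on array medians it was 1.22.

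**Figure D2:**
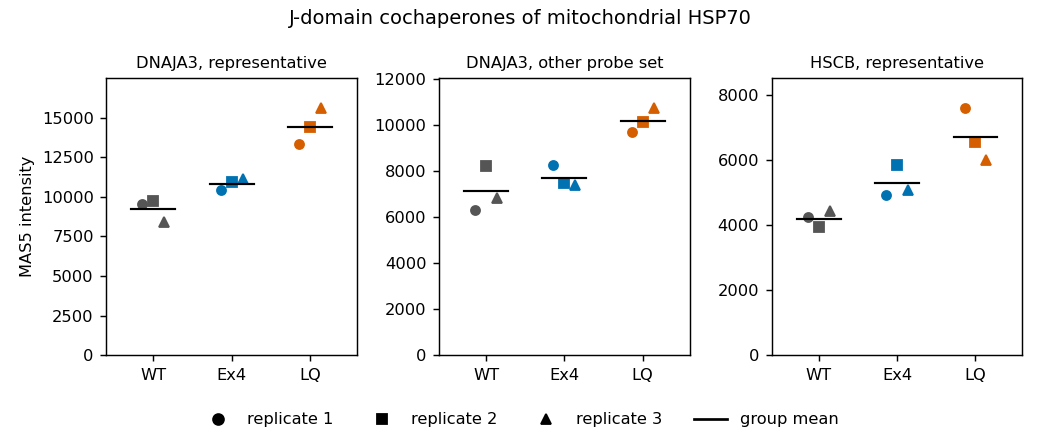
MAS5 intensity (linear y axis from 0) of both DNAJA3 probe sets and of HSCB on each array, by group. Marker shapes give the replicate and bars the group mean. On the DNAJA3 representative and on HSCB the 3 groups do not overlap, and on the other DNAJA3 probe set Ex4 overlaps WT.

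HSCB, the J-domain protein that works with HSPA9 in iron-sulfur cluster assembly, is not a member but serves the same HSP70. It gave 4257, 3935 and 4432 in WT, 4946, 5856 and 5078 in Ex4, and 7611, 6558 and 6007 in LQ. Its groups ran in the same order as those of DNAJA3, without overlap. This is its only probe set, and its suffix marks possible cross-hybridization. On the log2 scale it differed from WT by 0.67 ± 0.16 in LQ (SE, adjusted p = 0.037) and 0.33 ± 0.16 in Ex4 (adjusted p = 0.23). The LQ call ended after quantile normalization (0.54, adjusted p = 0.076), without a variance trend, and without WT replicate 2 or 3 or any one of the LQ arrays (adjusted p of 0.098 to 0.12). HSCB is shown because it passed, as 1 of 13 tested genes in a list of other mitochondrial chaperones, cofactors and scaffolds. DNAJC15 and DNAJC19, J-domain proteins of the same list, had 0.29 and -0.13 in LQ, and 0.11 and 0.02 in Ex4. Neither passed, and their groups overlapped.

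HSPA9, the HSP70 of the matrix (mortalin), gave 19262, 21532 and 26030.5 in WT, 27918, 22731 and 23244 in Ex4, and 25283.5, 24002 and 27473 in LQ. Both mutant groups overlapped WT. The fitted log2 change was 0.21 in LQ (95% confidence interval -0.13 to 0.54, adjusted p = 0.39) and 0.15 in Ex4 (-0.19 to 0.49, adjusted p = 0.57). On 2 other tested HSPA9 probe sets the LQ arrays exceeded every WT array, with log2 changes of 0.32 and 0.50 that did not pass (adjusted p = 0.19 and 0.15). The fourth, at 41.3 to 319.6, was too dim to be tested.

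GRPEL1, which releases ADP from HSPA9, gave 4677, 7708 and 7695 in WT, 6307, 6734 and 6561 in Ex4, and 8344, 7736 and 8331 in LQ. WT replicate 1 was far below the other 2 WT arrays, and the lowest LQ array was barely above the highest WT array. In log2 terms the change was 0.32 in LQ (95% confidence interval -0.11 to 0.74, adjusted p = 0.29) and 0.0021 in Ex4 (-0.42 to 0.42). Without WT replicate 1 the LQ change was 0.08. The second GRPEL1 probe set had 0.13 in LQ and -0.08 in Ex4, with all groups overlapping.

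HSPD1 forms the barrel of the mitochondrial chaperonin. Its intensity was 81817, 85884 and 71569 in WT, 63512, 73455 and 64531 in Ex4, and 57218, 58663 and 59303 in LQ. All LQ arrays lay below all WT and all Ex4 arrays. The log2 change in LQ against WT was -0.45 ± 0.13 (SE, 95% confidence interval -0.73 to -0.16, adjusted p = 0.060), just short of the threshold. It passed with a filter at percentile 60 (adjusted p = 0.048), with array weights (0.022) and without Ex4 replicate 1 (0.049). Array weights and fits without 1 array also changed how many probe sets passed over the whole array, as given below. The sign itself depended on scaling, since centring each array on its median gave 0.14 (adjusted p = 0.66). In Ex4 against WT the log2 change was -0.25 (95% confidence interval -0.53 to 0.04, adjusted p = 0.26), or 0.24 with that centring.

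The second bright HSPD1 probe set gave 46168, 45860 and 42132 in WT, 35275, 39720 and 44069 in Ex4, and 39429, 37517 and 37962 in LQ. All LQ arrays were again below all WT arrays, at a log2 change of -0.22 (adjusted p = 0.28). The 3 dimmer HSPD1 probe sets had -0.53, -1.57 and 0.50 in LQ, none of which passed. Both bright probe sets carry the suffix the maker gives to sets that match several transcripts. HSPD1 has processed pseudogenes, so signal from related sequence cannot be told apart here. The same suffix is on both DNAJA3 probe sets and on the representatives of HSPE1, HSPA9, LONP1, YME1L1 and HTRA2.

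HSPE1, the lid of the chaperonin, has 1 probe set. It gave 16023, 11334 and 10092 in WT, 11443, 14673 and 15899.6 in Ex4, and 11110, 11225 and 8384 in LQ. LQ and Ex4 each overlapped WT, while all LQ arrays lay below all Ex4 arrays. Its log2 change was -0.27 in LQ (95% confidence interval -0.72 to 0.18, adjusted p = 0.40) and 0.18 in Ex4 (-0.27 to 0.63, adjusted p = 0.61). LQ lay below Ex4 by a log2 difference of -0.45 ± 0.21 (SE, adjusted p = 1.0, 0.049 unadjusted).

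Although HSPD1 and HSPE1 share the stretch printed above, their signals followed each other only loosely. Over the 9 arrays Pearson's r between their log2 values was 0.42, which ranked HSPE1 at 4272 of 14017 genes by likeness to HSPD1. The 5 genes most alike in pattern to HSPD1 were CA12, TNRC18, LINC02352, LINC00205 and SYT13, with r of 0.95 to 0.98. The lowest r among the members was that of DNAJA3, at -0.76. These are descriptions over 9 arrays that share groups and scaling.

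TRAP1, the HSP90 of mitochondria, gave 7596, 10753 and 12342 in WT, 9815, 13446 and 12869.9 in Ex4, and 10629, 12423 and 15200.4 in LQ. Every group overlapped the others, and replicate 1 was the lowest array of each group. On the log2 scale it differed from WT by 0.33 in LQ (95% confidence interval -0.13 to 0.79, adjusted p = 0.32) and 0.25 in Ex4 (-0.21 to 0.71, adjusted p = 0.48). Its other probe set, at 12.7 to 105.0, was too dim to be tested.

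**Figure D3:**
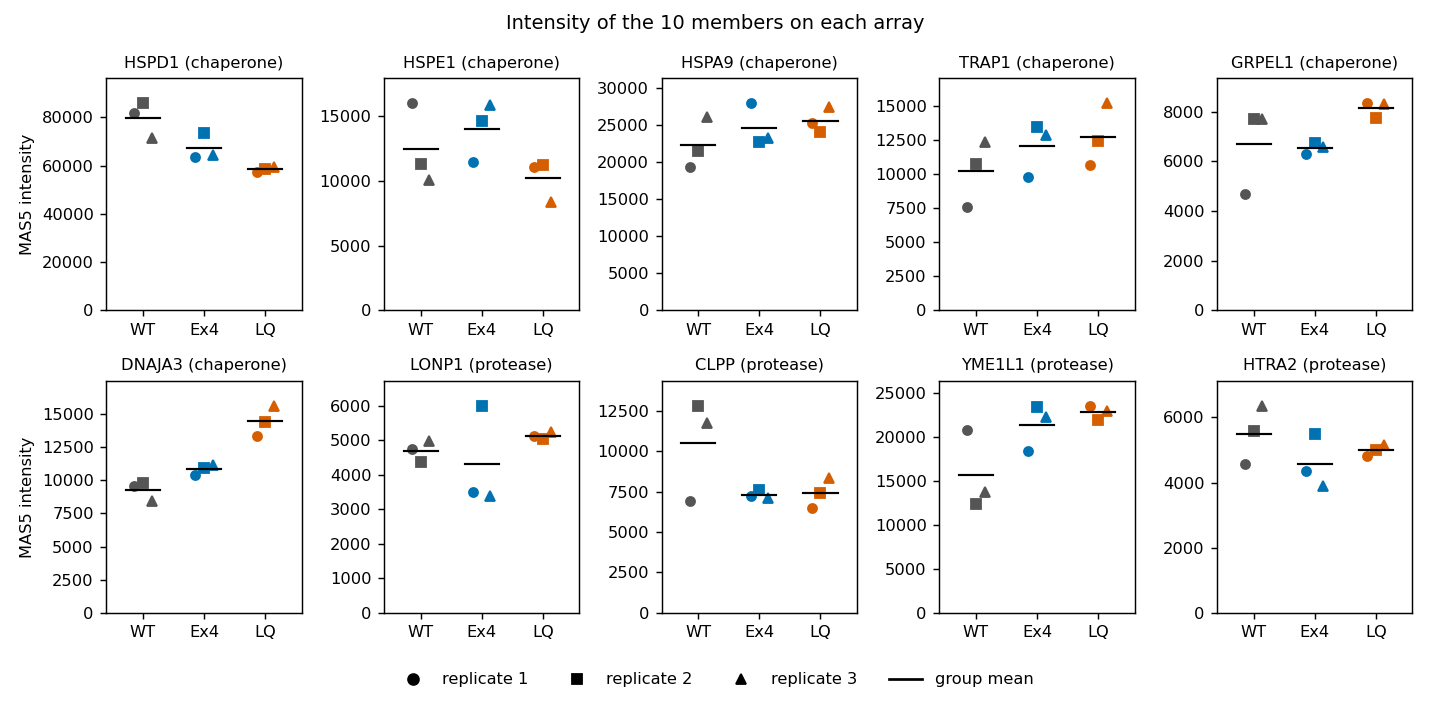
MAS5 intensity (linear y axes, each from 0) of the 10 members on every array, by group, on the representative probe set. Marker shapes give the replicate and bars the group mean. DNAJA3 is highest on the 3 LQ arrays (13318 to 15618), HSPD1 lowest there (57218 to 59303), and WT replicate 1 sits away from WT replicates 2 and 3 for GRPEL1, CLPP and YME1L1.

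Among the proteases no member passed. YME1L1, an ATP-dependent protease of the inner membrane that faces the intermembrane space, had the largest positive change of the 4. Its intensity was 20809, 12454 and 13785 in WT, 18415, 23426 and 22311 in Ex4, and 23585, 21936 and 23023 in LQ. Every LQ array exceeded every WT array, and WT replicate 1 overlapped Ex4. The fitted log2 change was 0.58 ± 0.19 in LQ (SE, adjusted p = 0.077) and 0.48 ± 0.19 in Ex4 (adjusted p = 0.15). Without WT replicate 1 both passed, at 0.80 (adjusted p = 0.0063) and 0.70 (0.014). How many probe sets passed over the whole array also varied widely between fits without 1 array, as given below.

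YME1L1 has 20 probe sets in the annotation, of which 3 were bright on all 9 arrays, at 12348 to 26918. Besides the representative, the bright ones had log2 changes of 0.40 and 0.63 in LQ and 0.63 and 0.46 in Ex4, and on both the LQ arrays exceeded every WT array. None of these values passed (adjusted p of 0.066 to 0.17). The bright one with 0.63 in LQ and 0.46 in Ex4 carries the cross-hybridization suffix. The mean over all 7 tested probe sets that the annotation gives to YME1L1 had the opposite sign, at -0.37 in LQ and -0.45 in Ex4, with negative changes on the 4 dimmer ones in both mutants. The source sequences of several dim ones may be T cell receptor transcripts, which was not checked here, so their assignment to YME1L1 is in doubt and that mean may not describe the gene.

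CLPP is the proteolytic chamber of the ClpXP complex. It gave 6945, 12815 and 11749.9 in WT, 7225, 7577 and 7139 in Ex4, and 6493, 7427 and 8318 in LQ. WT replicate 1 lay with the mutants, and the other WT arrays above all of them. In log2 terms the change was -0.46 ± 0.21 in LQ (SE, adjusted p = 0.18) and -0.47 ± 0.21 in Ex4 (adjusted p = 0.20). Without WT replicate 1 these were -0.73 (adjusted p = 0.012) and -0.75 (0.014), and both passed. With each array centred on its median they were 0.12 and 0.016. Fits without 1 array also changed how many probe sets passed over the whole array, as given below.

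WT replicate 1 was also the WT array farthest from the WT median for HSPE1, TRAP1, GRPEL1 and HTRA2, which with CLPP and YME1L1 makes 6 of 10 members. Some WT array must be farthest for every gene, and the share over all genes was not computed. The 3' to 5' ratio of WT replicate 1 was the highest of the 9 arrays for GAPDH, 1.43. For ACTB it was not, at 1.27 beside 1.43 and 1.48 on Ex4 replicates 2 and 3. What part RNA integrity has in these values was not tested.

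LONP1, the ATP-dependent protease of the matrix, gave 4740, 4362 and 4975 in WT, 3511, 5999 and 3398 in Ex4, and 5112, 5027 and 5233 in LQ. The LQ arrays exceeded every WT array by a small margin, and the Ex4 arrays lay on both sides of WT. Its log2 change was 0.13 in LQ (95% confidence interval -0.33 to 0.59, adjusted p = 0.72) and -0.17 in Ex4 (-0.63 to 0.29, adjusted p = 0.64).

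HTRA2 is a serine protease that can also be released to the cytosol during apoptosis. On its representative probe set it gave 4556, 5588 and 6355 in WT, 4367, 5484 and 3889 in Ex4, and 4825, 5015 and 5140 in LQ, with all groups overlapping. On the log2 scale it differed from WT by -0.13 in LQ (95% confidence interval -0.53 to 0.27, adjusted p = 0.68) and -0.26 in Ex4 (-0.66 to 0.14, adjusted p = 0.39). Its second probe set ran the other way, with 2484, 2974 and 2449 in WT, 2717, 4783 and 3517 in Ex4, and 4072, 4706 and 3711 in LQ. There the LQ arrays exceeded every WT array, at a log2 change of 0.66 (adjusted p = 0.080), so the direction of HTRA2 is not settled.

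Counted over the representatives, the LQ arrays exceeded every WT array for 4 of 10 members (DNAJA3, GRPEL1, LONP1 and YME1L1) and lay below all of them for 1 (HSPD1). Over all genes tested the shares were 15.7% above and 23.2% below. In Ex4 against WT the groups did not overlap for 1 member, DNAJA3, which was higher. There 9.07% of genes were higher without overlap and 14.9% were lower. In LQ against Ex4, DNAJA3 and GRPEL1 were above and HSPD1 and HSPE1 below without overlap, where 5.91% of genes were above and 6.47% below.

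The scaling of the arrays set where the members lay as a group. As deposited, the median log2 change over all tested probe sets was -0.15 in LQ and -0.12 in Ex4, after quantile normalization 0.04 and 0.02, and after centring on array medians 0.44 and 0.37. In LQ the members positive under these settings numbered 6, 5 and 10, and those called 1, 0 and 5. With median centring HSPA9, TRAP1, GRPEL1, DNAJA3 and YME1L1 passed in LQ, and HSPA9, DNAJA3 and YME1L1 in Ex4. Under that setting 8452 of 32768 probe sets passed in LQ, 7934 of them higher. In Ex4 5106 passed, 4824 of them higher. DNAJA3, HSPA9, TRAP1 and YME1L1 were positive in both mutants under each of these 3 scalings. The Ex4 change of DNAJA3 after quantile normalization was small, at 0.08 (limma adjusted p = 0.74).

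**Figure D4:**
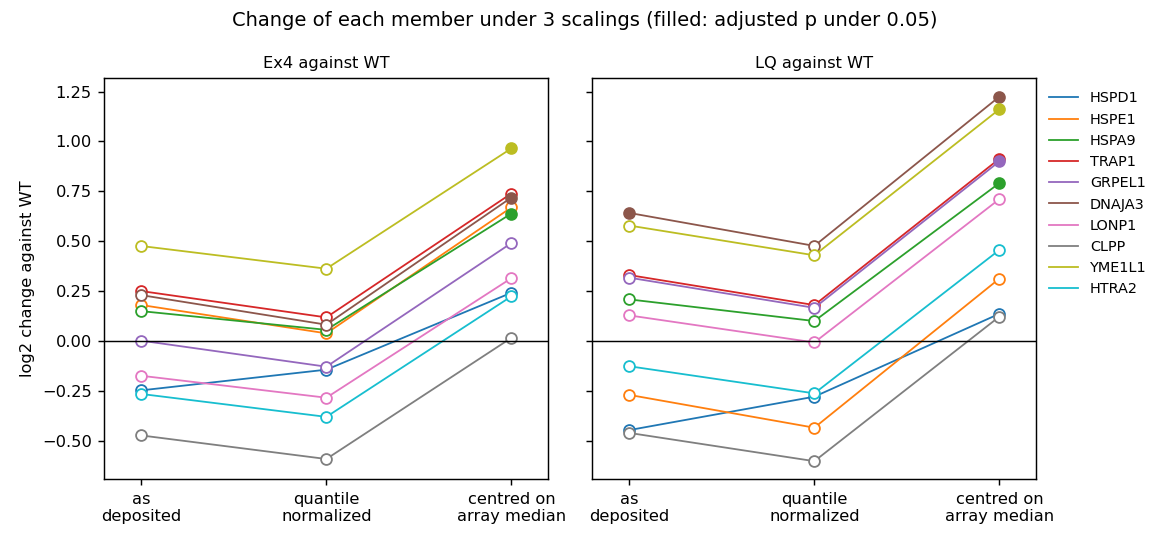
Log2 change of each member against WT (y axis) under 3 scalings of the arrays, for Ex4 (left) and LQ (right). Filled points passed an adjusted p of 0.05. Centring on array medians moved the members up, so that all 10 were positive in both mutants.

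Relatives of the members in other compartments were set beside them. HSPA5, the HSP70 of the endoplasmic reticulum (ER), rose in LQ by 0.77 on the log2 scale (adjusted p = 0.033), and had 0.79 in Ex4 (adjusted p = 0.077), where mitochondrial HSPA9 had 0.21 and 0.15. HSP90B1, the HSP90 of the ER, rose in LQ with 1.08 (adjusted p = 0.026) and had 0.94 in Ex4 (adjusted p = 0.077), where mitochondrial TRAP1 had 0.33 and 0.25. Their second probe sets had 0.13 (HSPA5) and -0.19 (HSP90B1) in LQ, which did not pass. Both HSP90B1 probe sets carry the cross-hybridization suffix. Both LQ calls ended without a variance trend (adjusted p = 0.078 and 0.064), with the mean of each gene's probe sets (0.089 and 0.14), and without WT replicate 2 or 3 or any one of the LQ arrays (0.077 to 0.11). HSPA8 of the cytosol had no probe set that named it alone. The cytosolic HSP90AA1 and HSP90AB1 had -0.34 and -0.07 in LQ. DNAJA1, a cytosolic J-domain protein of the same type as DNAJA3, had 0.06 in LQ. The 7 measured subunits of the cytosolic chaperonin ran from -0.27 (CCT4) to 0.43 (CCT3), and none passed. Of 16 tested relatives 2 were higher and 0 lower in LQ, where 3.69% of all genes were higher and 3.63% lower, and 0 passed in Ex4, where 0% of genes did. The differences between compartments were not tested.

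**Figure D5:**
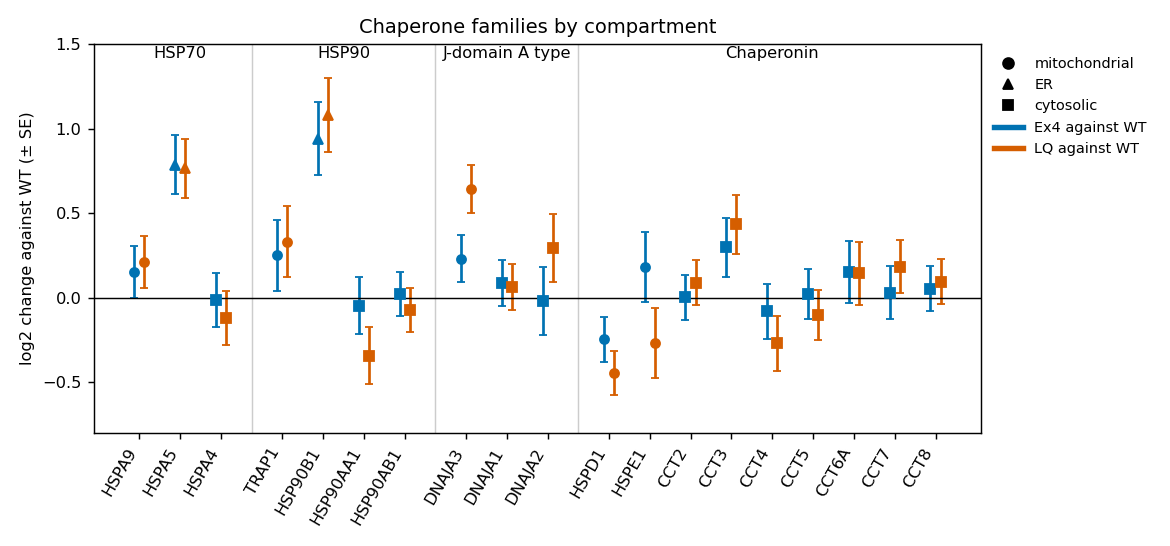
Log2 change against WT (y axis, ± SE, limma, n = 3 arrays a group) of chaperone families, with circles for mitochondrial, triangles for ER and squares for cytosolic proteins. HSPA5 and HSP90B1 of the ER lie at 0.77 and 1.08 in LQ, above HSPA9 at 0.21 and TRAP1 at 0.33.

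Other genes of mitochondrial protein quality control came from lists chosen by function, and in each list 1 gene or none passed in LQ against WT, against 7.32% of all genes. Of 14 tested proteases and processing peptidases 1 was higher and 0 lower, with 11 positive. It was XPNPEP3, an aminopeptidase that trims imported proteins, with 2177, 2266 and 1828 in WT, 2427, 4808 and 5191 in Ex4, and 4057, 4162 and 4694 in LQ. Its log2 change was 1.04 in LQ (adjusted p = 0.040) and 0.91 in Ex4 (adjusted p = 0.090). Its 3 other tested probe sets had -0.09 to -0.67 in LQ. IMMP1L, an inner membrane peptidase, had 0.48 in LQ, and PMPCA, a subunit of the presequence peptidase, -0.59 in Ex4 (adjusted p = 0.12 and 0.10). Of 13 tested chaperones, cofactors and scaffolds 1 was higher in LQ, HSCB, and 0 lower. PHB1, a prohibitin that scaffolds the inner membrane, had 0.46 in LQ and 0.38 in Ex4 (adjusted p = 0.16 and 0.26).

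Of 19 tested genes of protein import 1 was higher and 0 lower in LQ. TIMM21, a subunit of the inner membrane translocase, gave 6448, 4971 and 4692 in WT, 7386, 12958 and 13815 in Ex4, and 13026, 12353 and 11029 in LQ. All mutant arrays were above all WT arrays, and Ex4 replicate 1 was the closest to WT. The fitted log2 change was 1.18 in LQ (adjusted p = 0.025) and 1.04 in Ex4 (adjusted p = 0.077), and 0.55 and 0.24 on its other probe set. TIMM50, the receptor of that translocase, had 0.86 in LQ (adjusted p = 0.065), and TIMM17A, a channel subunit, 0.39 in Ex4 (adjusted p = 0.11).

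Of the regulators of the mitochondrial stress response, 9 were tested and none passed in LQ or Ex4. ATF5 had -0.15 in LQ and -0.44 in Ex4, ATF4 -0.13 and -0.31, and DDIT3 0.19 and -0.20. NRF1, whose site was searched in the promoters above, had -0.37 in LQ and -0.46 in Ex4 (adjusted p = 0.21 and 0.16). SIRT3, a mitochondrial deacetylase, had -0.61 and -0.84 (adjusted p = 0.081 and 0.077), and EIF2AK1, the kinase that relays mitochondrial stress to ATF4, -0.39 and -0.41 (adjusted p = 0.13 and 0.15). Of 9 tested genes on the ATF4 arm, 1 was higher and 0 lower in LQ. It was ATF3, a stress-induced transcription factor, with 0.89 (adjusted p = 0.020), and 0.59 in Ex4 (adjusted p = 0.081). TRIB3 had 0.71 and 0.58 (adjusted p = 0.087 and 0.17).

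Of 11 tested genes chosen as measures of mitochondrial content, 1 was higher and 0 lower in LQ, and the median log2 change was 0.02 in LQ and -0.11 in Ex4. The one that rose was TFAM, which packages mitochondrial DNA, at 0.76 (adjusted p = 0.047). TFAM had 0.88 in Ex4 (adjusted p = 0.077), and this representative carries the cross-hybridization suffix. Another of its probe sets passed in both mutants, at 1.60 in LQ (adjusted p = 0.0021) and 1.39 in Ex4 (0.0098), and was picked out after its values were seen. COX4I1, a respiratory chain subunit, had -0.26 and -0.32 (adjusted p = 0.39 and 0.31). In Ex4 no representative of these lists passed, where 0% of genes did. XPNPEP3, TIMM21, ATF3 and TFAM each lost their LQ call without a variance trend (adjusted p of 0.056 to 0.097). Each also lost it without any one of the LQ arrays or WT replicate 3 (0.073 to 0.15). XPNPEP3, TIMM21 and TFAM lost it without WT replicate 2 too (0.083 to 0.14). After quantile normalization XPNPEP3 and TFAM lost it (0.052 and 0.11). TFAM also lost it with no filter, with a block on the replicate number, and without Ex4 replicate 2 or 3 (0.053 to 0.058). With the mean of its probe sets XPNPEP3 had -0.026.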

How the data were processed

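Every probe set has 1 deposited intensity on a linear scale for each array. The authors computed it with MAS5 (version not stated), per the submitters' processing notes. Trimmed means of the 9 arrays were 1493 to 1495, and that scaling was left as it was. Depth does not apply to arrays, and their number limits the precision. No array pair was identical.

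Of 54613 probe sets without controls, 41091 named 1 gene in the platform annotation, 1801 several and 11721 none. A RefSeq table gave current symbols, matched on the gene identifier. Tests ran on log2(value + 16), a scale that understates the fold change of dim probe sets. Probe sets under percentile 40 of mean log2 value were left out. The 32768 others entered 1 limma model (version 3.58.1, R 4.3.3) of the 3 groups over all 9 arrays, with a variance trend, two-sided tests and Benjamini-Hochberg adjustment over all 32768 within each contrast. The fit was tested on simulated data. Alternatives were pseudocounts, scaling, filters, the variance trend, the arrays used, array weights, a block on the replicate number, an average over the probe sets of a gene, and fits that each left out 1 array.

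The members and lists were chosen with earlier results of these data known. The rule for named genes took all 10 members, the 2 genes of each other list with the smallest adjusted p in each mutant against WT, relatives in other compartments (HSPA5, HSP90B1, HSP90AA1, HSP90AB1, DNAJA1 and the CCT subunits with the lowest and highest change), DDIT3, ATF4, ATF5 and the 5 genes most alike to HSPD1. The rule also took HSPA8, a cytosolic relative, but no probe set named it alone. DNAJC15, DNAJC19 and NRF1 were named outside that rule, after their values were seen. Promoters are from RefSeq (GRCh38.p14).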

Additional observations from a re-analysis of the deposited data

How the results depend on the processing

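The number of members called in LQ against WT was 1 as reported. It was 0 after quantile normalization and without a variance trend, 5 with each array centred on its median, 2 with a filter at percentile 60 and 4 with array weights, and 0 to 3 with 1 array left out. In Ex4 against WT it was 0 as reported, 3 with median centring, 2 with array weights and 0 to 2 with 1 array left out. In LQ against Ex4 it was 0 throughout. With the replicate number as a block the members called were again 1, 0 and 0, and the probe sets called in LQ against WT 2215 beside 2231. Same-numbered deviations correlated at 0.17, 0.10 and 0.07 between LQ and WT, where 6 of 6 arrays matched their own number best. Between Ex4 and WT they correlated at -0.08 to 0.01, and 0 of 6 matched. Between LQ and Ex4 they correlated at 0.19, -0.01 and 0.12, and 3 of 6 arrays matched. The numbers were not taken to pair the arrays, since the match did not hold across all 3 groups. Whether LQ and WT arrays of the same number share a batch cannot be told from the labels. The probe sets called in LQ against WT numbered 1154 after quantile normalization, 8452 with median centring, 442 without a variance trend, 4035 with the arrays compared alone and 8580 with array weights, and 8 to 4993 with 1 array left out. In Ex4 against WT there were 4 as reported, 10, 5106, 4, 2 and 5287 under these settings, and 2 to 4433 with 1 array left out. In LQ against Ex4 there were 2 as reported, 1 without a variance trend, and 2 to 3 with 1 array left out.

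Signs changed as follows. Median centring gave 0.14 for HSPD1, 0.31 for HSPE1, 0.12 for CLPP and 0.46 for HTRA2 in LQ, and 0.24 for HSPD1, 0.31 for LONP1, 0.016 for CLPP and 0.22 for HTRA2 in Ex4. Quantile normalization gave -0.0069 for LONP1 in LQ, -0.13 for GRPEL1 in Ex4 and -0.011 for CLPP in LQ against Ex4. Array weights gave -0.13 for GRPEL1 in Ex4 and -0.0035 for TRAP1 in LQ against Ex4. Averaging the probe sets of a gene gave -0.37 for YME1L1, 0.26 for HTRA2 and -0.026 for XPNPEP3 in LQ, -0.45 for YME1L1, 0.089 for HTRA2 and -0.037 for GRPEL1 in Ex4, and 0.090 for HSPD1 in LQ against Ex4. With 1 array left out GRPEL1 in Ex4 ran from -0.24 to 0.12, and in LQ against Ex4 TRAP1 ran from -0.060 to 0.20, CLPP from -0.074 to 0.10 and YME1L1 from -0.0015 to 0.17. The cause was not tested. The fits without 1 array have fewer samples. No other member or called list gene changed sign.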

Other observations

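The platform annotation gives 20 probe sets to YME1L1. The source sequences of several dim ones may be T cell receptor transcripts, so their assignment is in doubt and their values are not read as those of the gene. Besides the 4 above the array median on all 9 arrays, there are 16 others, which lay between 3.6 and 1055. Of these 16, 14 had lower group means in both mutants than in WT, against the direction of the 3 bright probe sets. All 3 LQ arrays lay below all WT arrays on 5 of them. One of these 5 gave 251.3, 293.4 and 321.5 in WT, 57.8, 56.9 and 36.2 in Ex4, and 87.3, 45.8 and 37.9 in LQ, below the array median throughout. Another gave 1055 on WT replicate 1 and 12.0 to 195.1 on the other 8 arrays. These 2 were picked after their values were seen. Whether they measure YME1L1 transcripts was not tested. A dim HSPD1 probe set gave 576.7, 1528 and 1361 in WT, 616.4, 67.5 and 246.8 in Ex4, and 278.1, 426.1 and 350.9 in LQ.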
